A study of Homo sapiens with 2 samples.

Results

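The miR-548 family was followed as 38 of the 934 names of mature miRs in the deposited table. Its members are all names that begin with miR-548 once the species prefix is dropped, whatever their case, arm, copy number or asterisk. The table comes from small RNA libraries of untreated K562, an established line of human chronic myelogenous leukemia cells, and of K562/ADM, a resistant variant of that line that was exposed continuously to rising amounts of adriamycin (ADM) and then kept in 1000 ng/mL of it. There was 1 library for each cell line, and K562/ADM is a single derived line. The comparison is therefore between these libraries, and no p-value is given.

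MiR-548 is a large family found in primates. Its hairpins descend from Made1, a short DNA transposon with near-palindromic ends, so that an RNA copied through an inserted element can fold back on itself into a precursor that Drosha and Dicer cut. Each hairpin can give a mature miR from its 5' arm (5p) and from its 3' arm (3p), and the seed, bases 2 to 8 of the mature miR, leads the choice of target mRNAs. Because the copies lie scattered over the genome, many members lie in introns of unrelated host genes rather than in a common cluster.

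The mature sequences below are those of the 7 members with at least 50 reads over both libraries whose listed name is also a RefSeq name. They are shown 5' to 3' to make visible how alike the members are within an arm, with the seed in capitals. Positions are on GRCh38.p14.
miR-548b-5p, MIR548B, chr6:119069098-119069119, minus strand: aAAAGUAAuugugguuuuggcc
miR-548b-3p, MIR548B, chr6:119069062-119069083, minus strand: cAAGAACCucaguugcuuuugu
miR-548n, MIR548N, chr7:34940804-34940825, minus strand: cAAAAGUAauuguggauuuugu
miR-548u, MIR548U, chr6:57390180-57390202, plus strand: cAAAGACUgcaauuacuuuugcg
miR-548k, MIR548K, chr11:70283986-70284007, plus strand: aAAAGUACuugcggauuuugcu
miR-548s, MIR548S, chr2:11767495-11767517, plus strand: aUGGCCAAaacugcaguuauuuu
miR-548q, MIR548Q, chr10:12725325-12725346, minus strand: gCUGGUGCaaaaguaauggcgg

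In all, 12 of the 38 names were matched to RefSeq in this way, and their seeds fell into 10 kinds. Among these 12 the seed AAAGUAA was shared by miR-548b-5p, miR-548w and miR-548y, and each of the other seeds belonged to 1 matched member. MiR-548n carries the same run moved by 1 base, so that its seed reads AAAAGUA. Of the 66 pairs of matched members, 6 differed at 3 or fewer bases over an ungapped overlap of at least 18 bases. MiR-548b-5p differed from miR-548n at 3 bases over 21 and from miR-548w at 3 bases over 22. No pair of matched members had the same sequence, although reads with sequencing errors can still be divided between such close names.

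The palindrome of the transposon is visible in the letters. AAAAGUAA was found in 16 of 55 RefSeq mature miRs of the family and in no mature miR outside it, out of 2370 in all (0.675%). Its reverse complement, UUACUUUU, was found in 15 of the 55 and in 17 of the 2370 (0.717%). The search was made on the mature strand, and the motifs overlap no other motif searched. The median share of G and C was 36.4% in the 12 matched members, against 52.2% over all RefSeq mature miRs. Some arms are identical between hairpins, and miR-548g-5p, miR-548x-5p and miR-548aj-5p have the RefSeq sequence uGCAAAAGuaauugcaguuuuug in common.

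RefSeq lists 42 hairpin genes for the 25 letters under which the members are named, on 18 chromosomes, and 8 letters have more than 1 gene. MiR-548f has 5 genes and miR-548h also 5, so that reads under these names cannot be given to a locus. In the GENCODE annotation on GRCh37, 39 of the hairpins were found. Of these, 21 (53.8%) lie in an intron of a protein-coding gene on the same strand, against 29.2% of the other 2976 annotated miR hairpins. MIR548B lies in an intron of FAM184A, MIR548N in DPY19L1, MIR548U in PRIM2, MIR548K in PPFIA1 and MIR548C in RASSF3. The hairpin of miR-548q lies opposite to an intron of CAMK1D, on the other strand.

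The libraries held 7677738 reads for K562 and 6895193 for K562/ADM, recovered as whole numbers from the deposited values with the smallest value of each column taken as 1 read. MiR-378 alone took 50.6% and 53.1% of them. Among blood-cell miRs, the reads of miR-142-3p were 351692 for untreated K562 and 507475 for the resistant line, those of miR-142-5p 10380 and 9588, and those of miR-223 1712 and 1246, while 8 miRs typical of liver, muscle, neurons or epithelium summed to 967 and 836. MiR-141, an epithelial miR, gave 893 and 743 of these reads. Among the 8, miR-133a and miR-206 had 0 reads in K562 and miR-205 had 0 in K562/ADM.

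The family was widely detected and rare. At least 1 read was found for 36 of the 38 members in K562 and for 37 in K562/ADM, and 35 had reads in both. Over all 934 names 88.7% and 87.3% were detected. The table lists no name without reads in both libraries, so that members of the family never seen in either line are not counted. The 38 members summed to 6397 reads in K562, which is 0.0833% of the library (exact 95% binomial interval 0.0813 to 0.0854). In K562/ADM they summed to 4056 reads, or 0.0588% (0.0570 to 0.0607). All intervals here and below cover counting error only. The median member was at 41.5 reads in K562 and at 29 in K562/ADM, against 17.5 and 11 for the median name of the table. The most abundant member ranked 103 among all names in K562, where it was miR-548b-5p, and 110 in K562/ADM, where it was miR-548f.

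**Figure D1:**
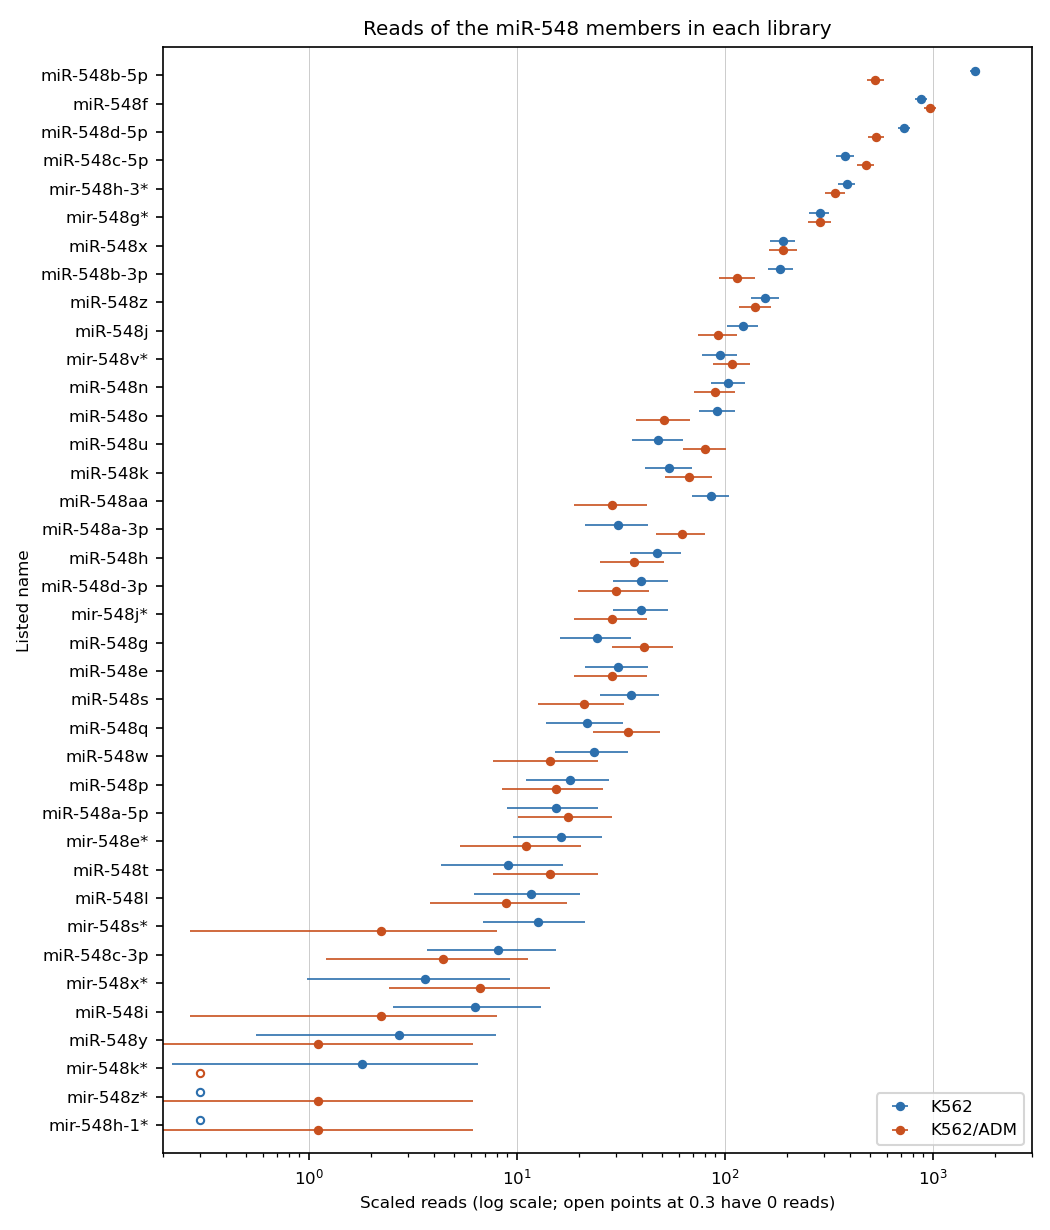
Scaled reads of each of the 38 members (x axis, log scale) in K562 (blue) and K562/ADM (orange), ordered by total reads. Points are single libraries, bars are exact 95% Poisson intervals, some of which run past the left edge, and open points, drawn without a bar, mark 0 reads. The members span from 0 to 1589.5 scaled reads, and the bars of miR-548b-5p lie far apart.

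A few 5p miRs and names without an arm held most of the family's reads. In K562 miR-548b-5p had 1759 reads, miR-548f 974 and miR-548d-5p 807. In K562/ADM miR-548f had 880 reads, miR-548d-5p 483 and miR-548b-5p 479. The 3 most abundant members held 55.3% of the family's reads in K562 and 45.4% in K562/ADM. Below them came miR-548c-5p with 419 and 430 reads, mir-548h-3* with 427 and 307, and mir-548g* with 316 and 258. Of the remaining members none exceeded 211 reads in either library. At least 100 reads were reached by 13 members in K562 and by 9 in K562/ADM.

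Libraries were scaled by the median of ratios, and every ratio here is K562/ADM over K562. For the family's summed reads it was 0.776 (95% interval 0.746 to 0.808), which is 1.29-fold lower in the resistant line, but under upper-quartile scaling it was 1.30 (1.25 to 1.35), so that its direction depends on the scaling. MiR-548b-5p had 1059 fewer scaled reads in K562/ADM, and the family as a whole 1292 fewer, under the median of ratios. Without miR-548b-5p the ratio of the other 37 members was 0.944 (0.904 to 0.987). Because whole cultures were sequenced, fewer cells with a miR and less of it per cell cannot be told apart.

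Calls were made for members that differed by 2-fold or more in either direction with an interval that left out 1. Of the 38 members, 3 were called lower (7.89%) and 1 higher (2.63%), while by the same rule 15.6% of all 934 names were lower and 11.1% were higher. The remaining 34 members were not called. For 12 of the 38 members (31.6%) the whole interval lay within 2-fold of equality, against 21.3% of all names. This share depends on the number of reads, which is larger for the median member than for the median name. Among names that had 10 or more reads over both libraries the shares were 36.4% of 33 members and 32.9% of 604 names. A difference of these shares was not tested.

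MiR-548b-5p was the member with the clearest difference. It had 1759 reads in the untreated line and 479 in the resistant line, a ratio of 0.333 (95% interval 0.301 to 0.369), and it was the only member whose whole interval lay past 2-fold, as it did for 11.1% of all names in this direction and for 6.53% in the other. Its share of the family's reads went from 27.5% (26.4 to 28.6) to 11.8% (10.8 to 12.8). MiR-548aa had 95 and 26 reads, a ratio of 0.335 (0.208 to 0.522). The third member called lower was mir-548s*, with 14 reads and 2 reads, a ratio of 0.175 (0.0193 to 0.762), so that its fall is known only loosely. The member called higher was miR-548a-3p, with 34 and 56 reads and a ratio of 2.02 (1.29 to 3.19). It stands close to the limit of the call and was not called under total-count scaling or with miR-425 as the scale. Under upper-quartile scaling no member was called lower, against 10.2% of all names, and the ratio of miR-548b-5p was 0.558. By that scaling 7 members (18.4%) were called higher, against 23.9% of all names.

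**Figure D2:**
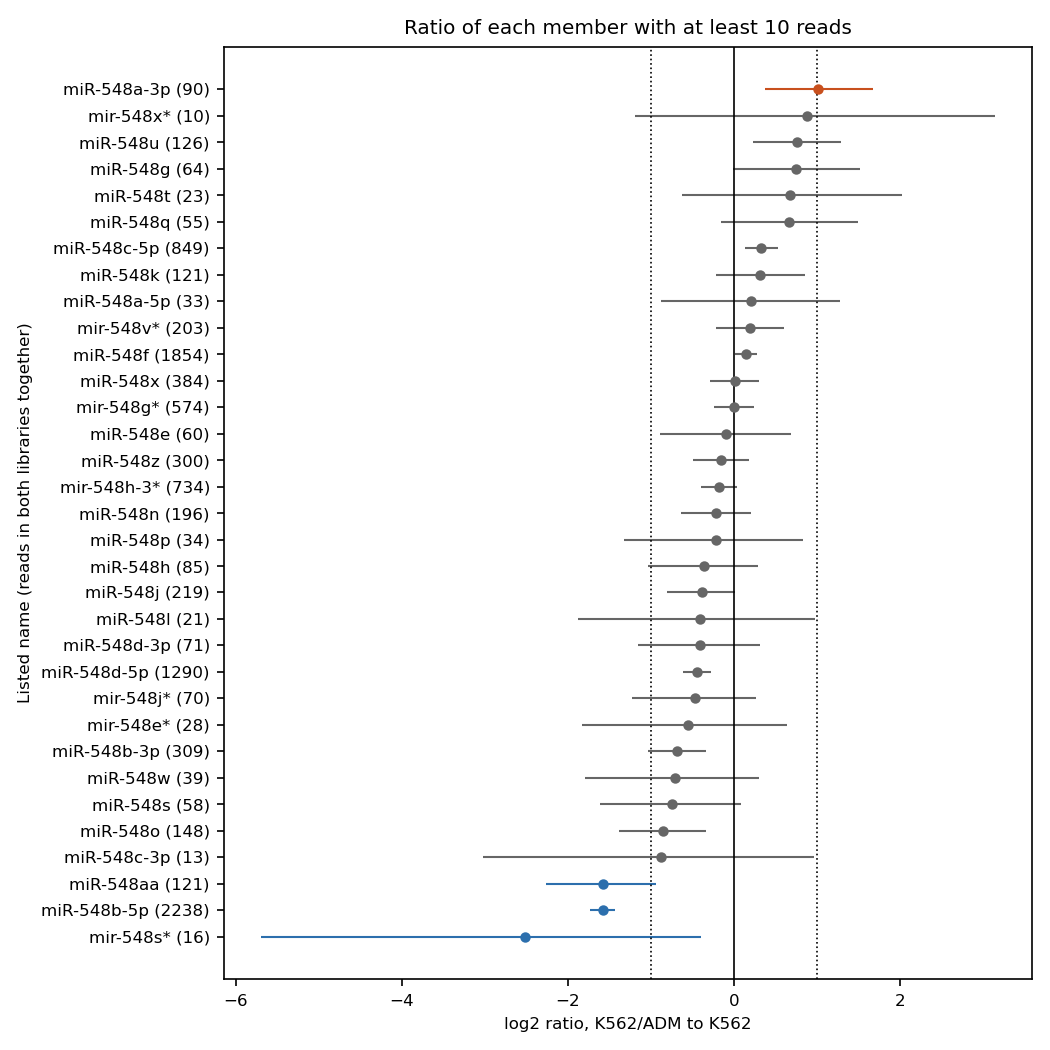
Log2 ratio between the libraries, K562/ADM over K562, on the x axis of the 33 members with at least 10 reads over both libraries, whose reads stand in brackets beside each name. Points are ratios after scaling, bars are exact 95% counting intervals, the solid line marks equal levels and dotted lines mark 2-fold. The 3 blue members (mir-548s*, miR-548b-5p and miR-548aa) were called lower and the orange member (miR-548a-3p) higher, and the 29 grey members were not called (under upper-quartile scaling no member was called lower and 7 were called higher).

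The other abundant members moved less, and not all in the same direction. MiR-548d-5p had a ratio of 0.733 (95% interval 0.653 to 0.821), which was 1.23 under upper-quartile scaling, and miR-548c-5p had a ratio of 1.26 (1.10 to 1.44), which was 2.10 (1.83 to 2.41) and a call under that scaling. MiR-548f stood at 1.11 (1.01 to 1.21), mir-548h-3* at 0.880 (0.758 to 1.02; 1.47 under upper-quartile scaling) and mir-548g* at 1.00 (0.845 to 1.18). By the median of ratios each of these intervals lay within 2-fold. Among members with fewer reads, miR-548x had 211 and 173 reads, a ratio of 1.00 (0.816 to 1.23), and miR-548z had 173 and 127, a ratio of 0.899 (0.709 to 1.14). MiR-548j had 135 and 84 reads with a ratio of 0.762 (0.573 to 1.01). MiR-548b-3p, which lies between them in abundance, had a ratio of 0.621 (0.486 to 0.790). Under upper-quartile scaling miR-548x stood at 1.68 (1.37 to 2.06) and miR-548z at 1.505 (1.19 to 1.90), both with intervals above 1.

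The next members in abundance diverged. MiR-548n, a 5p miR, had 115 and 81 reads, a ratio of 0.863 (95% interval 0.641 to 1.16). Mir-548v*, the only listed name of its letter, had 105 and 98 reads and a ratio of 1.14 (0.859 to 1.52). MiR-548o had 102 and 46 reads, a ratio of 0.552 (0.381 to 0.790), an interval below 1 although the ratio did not reach 2-fold. MiR-548u, a 3p miR, had 53 and 73 reads, a ratio of 1.69 (1.17 to 2.45). Its interval lay above 1, likewise without a 2-fold ratio. MiR-548k had 60 and 61 reads, a ratio of 1.25 (0.857 to 1.81), and miR-548h 52 and 33, a ratio of 0.777 (0.487 to 1.22). For both the interval included 1 by the median of ratios. Under upper-quartile scaling miR-548u stood at 2.82 (1.96 to 4.10) and miR-548k at 2.08 (1.435 to 3.03), and both were called higher. By that scaling miR-548o stood at 0.924 (0.638 to 1.32).

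The 14 rarer members below had intervals that included 1 by the median of ratios. MiR-548d-3p had 44 and 27 reads, mir-548j* 44 and 26, miR-548s 39 and 19, miR-548e 34 and 26, and miR-548g 27 and 37. MiR-548w had 26 and 13 reads, miR-548q 24 and 31, miR-548p 20 and 14, mir-548e* 18 and 10, and miR-548a-5p 17 and 16. At the lower end miR-548l had 13 and 8 reads, miR-548t 10 and 13, miR-548c-3p 9 and 4, and mir-548x* 4 and 6. Under upper-quartile scaling 3 of the 14 were called higher, miR-548g at 2.81 (1.66 to 4.80), miR-548q at 2.65 (1.504 to 4.71) and miR-548t at 2.66 (1.08 to 6.79).

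The 5 members with under 10 reads over both libraries are at the limit of detection. MiR-548i had 7 reads and 2 reads, and miR-548y 3 reads and 1 read. Mir-548k* had 2 reads in the untreated line and 0 of 6895193 in the resistant line, which, at the 3 reads that a count of 0 allows, is a share of up to 4.35e-05% there. Mir-548z* and mir-548h-1* each had 0 of 7677738 reads in K562, which allows up to 3.91e-05%, and 1 read in K562/ADM. Counted by a 2-fold ratio alone, with a count of 0 taken as 0, these 5 names would be past the limit. That gave 6 members lower and 3 higher in all, against 29.4% and 25.3% of all names. With a count of 0 set at 3 reads, the log2 ratio was 0.88 for mir-548k* and -1.29 for mir-548z* and mir-548h-1*. These lie on the opposite sides, so no direction can be read for these names.

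The members differed from each other in ways that the scaling cannot change, since a ratio between members of the same library is free of it. Of the 15 pairs among the 6 members with at least 500 reads, the ratio of their ratios had an interval that excluded 1 in 11 pairs. These intervals were not adjusted for the number of pairs. Pairs of other names were not computed, so the count is not a trait of the family. For single names under the median of ratios, the interval excluded 1 for 26.3% of the members, against 43.8% of all names. MiR-548b-5p fell against each of the other 5, for example by a factor of 0.301 (95% interval 0.262 to 0.346) against miR-548f and 0.455 (0.390 to 0.531) against miR-548d-5p. Against miR-548c-5p the factor was 0.265 (0.223 to 0.315). MiR-548d-5p also fell against miR-548c-5p, by a factor of 0.583 (0.487 to 0.698). In contrast miR-548f and miR-548c-5p kept a ratio of 0.880 (0.746 to 1.04), and mir-548h-3* and mir-548g* one of 0.881 (0.702 to 1.11).

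**Figure D3:**
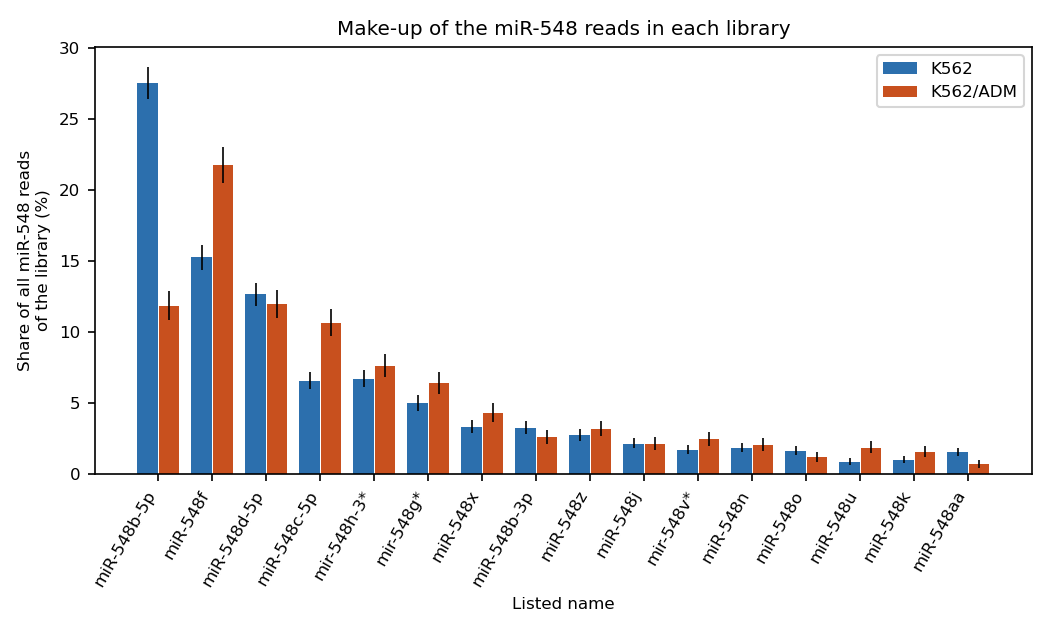
Share of all miR-548 reads of a library in percent (y axis) held by each member with at least 100 reads over both libraries (x axis), in K562 (blue) and K562/ADM (orange). Bars are single libraries and black lines are exact 95% binomial intervals. MiR-548b-5p fell from 27.5% to 11.8%, while miR-548f went from 15.2% to 21.7% and miR-548c-5p from 6.55% to 10.6%.

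With miR-548b-5p taking less of the total, the reads were spread more evenly over the family in K562/ADM. The 5 most abundant members of each library held 68.6% of the family's reads in K562 and 63.6% in K562/ADM. The effective number of members, the inverse of the sum of squared shares, was 7.65 and 9.76. MiR-548f took 15.2% of the family's reads in K562 and 21.7% in K562/ADM, where it became the leading member although its own ratio was only 1.11.

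The arm could be given for 17 of the 38 members, 8 from the listed name and 9 from the place of the RefSeq sequence in its hairpin, and for the other 21 it was not assigned. The 10 names of 5p miRs summed to 3243 and 1603 reads, a ratio of 0.605 (95% interval 0.570 to 0.643), which was 1.01 under upper-quartile scaling. The 7 names of 3p miRs summed to 404 and 297 reads, a ratio of 0.900 (0.772 to 1.05), which was 1.51 (1.29 to 1.75) under upper-quartile scaling. The 21 names without an arm had 2750 and 2156 reads, a ratio of 0.960 (0.907 to 1.02). Without miR-548b-5p the ratio of the 5p names was 0.928 (0.858 to 1.003). The 3p sum without its most abundant member, miR-548b-3p, had a ratio of 1.19 (0.969 to 1.46).

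Both names of a hairpin or letter could be compared for 9 of 11 pairs with at least 10 reads on each name, again without regard to scaling. The arms of miR-548b were the 1 pair whose interval excluded 1. There were 8.58 reads of miR-548b-5p for each read of miR-548b-3p in K562 and 4.61 in K562/ADM, a change by a factor of 0.537 (95% interval 0.413 to 0.701). MiR-548b-3p itself went from 205 to 104 reads, a ratio of 0.621 (0.486 to 0.790), so that both arms of this hairpin were lower and the 5p arm more so, although miR-548b-3p stood at 1.04 under upper-quartile scaling. For miR-548d the 5p arm outnumbered the 3p arm 18.3 to 1 in K562 and 17.9 to 1 in K562/ADM, a factor of 0.975 (0.582 to 1.66). For miR-548a, where the 3p arm led, the factor was 0.574 (0.236 to 1.38). For miR-548c, with 4 reads of miR-548c-3p in K562/ADM, the interval ran from 0.638 to 10.3. The interval of miR-548g against mir-548g* was 0.965 to 2.95, and in this pair the name with the asterisk had the more reads in both libraries.

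**Figure D4:**
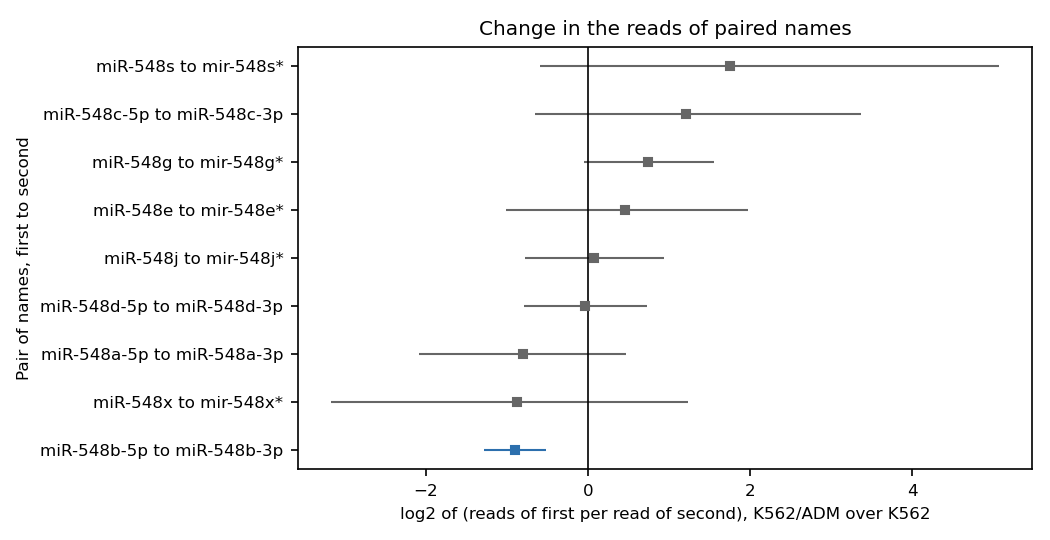
Change between the libraries in the reads of 1 name per read of its partner, for 9 pairs of names that share a letter (y axis), as the log2 of the value in K562/ADM over that in K562 (x axis). Squares are estimates, bars are exact 95% conditional intervals and the line marks no change. The interval of miR-548b-5p to miR-548b-3p, drawn in blue, lies wholly below the line, and the other 8 include it.

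Names with an asterisk are all spelled mir in this family, and 10 of the 38 are of this kind. Their sums were 930 and 709 reads, a ratio of 0.934 (95% interval 0.845 to 1.03). The 28 names spelled miR summed to 5467 and 3347 reads, with a ratio of 0.750 (0.718 to 0.783). No source used here says which sequence stands under an asterisk. RefSeq has 1 sequence for miR-548g-5p and miR-548x-5p, shown above, whereas mir-548g* was listed with 316 and 258 reads and mir-548x* with 4 and 6, so that no arm was given to these names.

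Read by letter, so that all names of a letter are added, the same picture held for miR-548b, with 1964 and 583 reads and a ratio of 0.364 (95% interval 0.331 to 0.399). MiR-548d, with 2 genes, had a ratio of 0.734 (0.656 to 0.820), and miR-548c, with 1 gene, had a ratio of 1.24 (1.08 to 1.42). The letters a and u had intervals above 1, at 1.73 (1.19 to 2.53) and 1.69 (1.17 to 2.45). Those of aa at 0.335 (0.208 to 0.522), s at 0.485 (0.278 to 0.818), o at 0.552 (0.381 to 0.790) and j at 0.753 (0.588 to 0.960) lay below 1. For single names the interval left out 1 in 43.8% of all names. These letter ratios are by the median of ratios, and upper-quartile scaling raises each 1.67-fold. MiR-548o, the only name of its letter, then stood at 0.924 (0.638 to 1.32), and miR-548d-5p at 1.23. By seed, the 3 matched members with AAAGUAA had a ratio of 0.338 (0.305 to 0.373), but miR-548b-5p gave 1759 of their 1788 reads in K562. This sum leaves out every unmatched name, miR-548c-5p and miR-548d-5p among them, and does not stand for all miRs with the seed. RefSeq gives AAAGUAA to miR-548j-5p as well, and the listed miR-548j, which was not matched, had a ratio of 0.762. The seed AAAGUAC of miR-548k, 1 base away, had a ratio of 1.25 (0.857 to 1.81), as that of its only member.

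For the 33 members with 10 or more reads, the log2 ratio had a median of -0.21, with 12 members above 0 and 21 below. Over all 604 names with as many reads the median was -0.08, with 287 above 0 and 317 below. The lower and upper quartiles of the members were -0.56 and 0.20, a width of 0.76, while the quartiles of all names were 1.63 apart. The narrower range of the members is a description, as its difference from that of all names was not tested. Under upper-quartile scaling, which raises every log2 ratio by 0.74, the median of the members was 0.53.

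**Figure D5:**
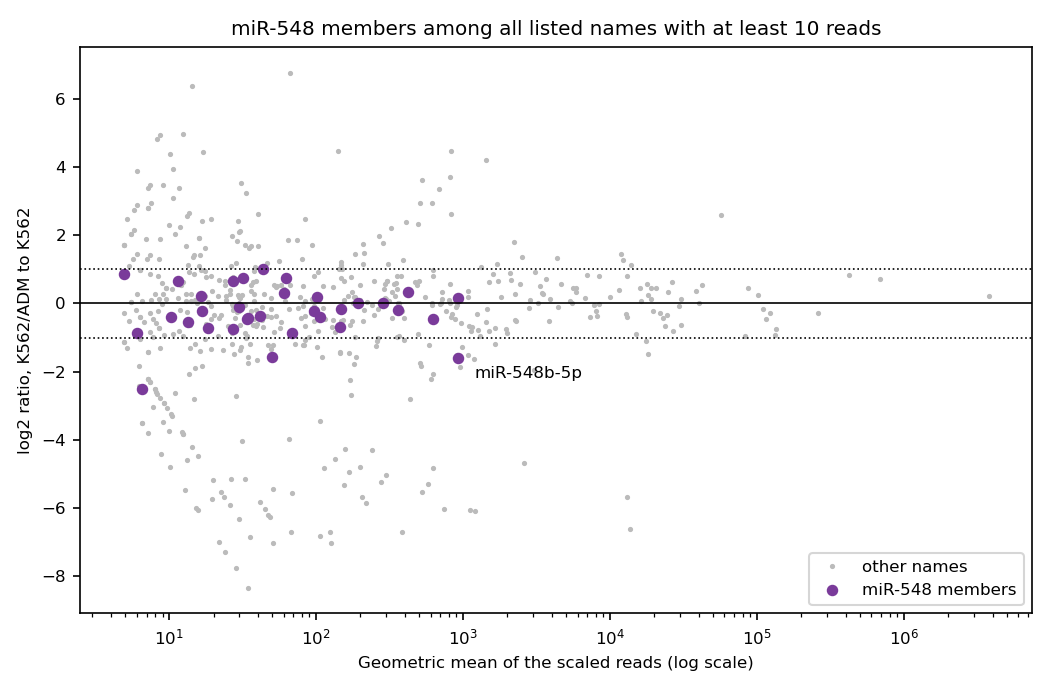
Log2 ratio between the libraries, K562/ADM over K562, on the y axis against the geometric mean of the scaled reads (x axis, log scale) for the 604 names with at least 10 reads, with miR-548 members in purple and other names in grey. Each point is 1 name, a library without reads is set at 3 reads, and lines mark equal levels (solid) and 2-fold (dotted). Between the dotted lines lie 29 of the 33 members, and miR-548b-5p lies below them among the most abundant members.

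Other miRs of transposon origin were set beside the family. MiR-570 and miR-579, which are related to Made1 but carry other numbers, gave 4 listed names, which together had 146 and 125 reads, a ratio of 1.05 (95% interval 0.819 to 1.34). MiR-570 had 81 and 75 reads, a ratio of 1.13 (0.817 to 1.57), and miR-579 had 31 and 24, a ratio of 0.948 (0.532 to 1.67). Of the 4 names 1 was called lower (25%, against 15.6% of all names). This was mir-579*, which had 8 reads in K562 against 0 in K562/ADM. MiR-603, a further relative, was not among the listed names. The resemblance of miR-570 to the family is close, since its 5p miR has the same RefSeq sequence as miR-548ai, aAAGGUAAuugcaguuuuuccc.

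Names known from other transposable elements, 18 in the table, were more abundant, with 33692 and 23722 reads and a ratio of 0.862 (95% interval 0.848 to 0.877). The most abundant was miR-151-3p, from an L2 element, at 23491 and 16540 reads. Of these 18 names 1 was called higher, miR-545 (5.56%, against 11.1% of all names). Called lower were 2, miR-544 and mir-544* (11.1%, against 15.6% of all names). These names share a number and are not separate cases, and where their hairpin lies was not looked at here. In K562 there were 28 reads of miR-544 and 31 of mir-544*, and in K562/ADM none of either.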

How the data were processed

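Small RNA of K562 and K562/ADM cells, 1 library of each, had been sequenced as 36-base reads. The authors grouped reads into unique sequences, left out singletons, and used Bowtie within miRanalyzer to map the others to miRBase 16. The submitters' processing notes also name CASAVA 1.7.0, DESeq and hg18. The deposited signal of a name is its number of reads over a DESeq size factor. A further 4 deposited columns hold the authors' own fold changes, log2 fold changes and p-values, and were not used.

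The smallest value above 0 in a column was taken as 1 read, and in this unit 100% of the values were whole within 0.001. By this unit 100 names in K562 and 124 in K562/ADM had 1 read, which a filter on singletons would not leave. The conflict was not resolved, and the counts and intervals rest on this unit. Libraries were scaled by the median of ratios. Ratios have exact 95% Clopper-Pearson intervals from the split of reads between libraries. Pairs of names have exact conditional intervals. No count model could be fitted with 1 library per line. A member was called at 2-fold with an interval excluding 1. Intervals and calls were tried on data simulated with counting error alone and with changes well past 2-fold. This does not test them for spread between cultures or for ratios near the limit of the call.

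The members and lists were chosen with earlier results of these data known. Members with 10 or more reads over both libraries, or called, are named. The sequences shown for members are of names with at least 50 reads, and those of miR-548g-5p and miR-570-5p were added after the values were seen. Alternatives were other scalings, call rules and read minimums, and sums without leading members. Sequences and hairpin genes are from RefSeq (GRCh38.p14), hosts from GENCODE on GRCh37. TMM and upper-quartile factors came from edgeR 4.0.16 in R 4.3.3. All else was computed in Python 3.11.15 with scipy 1.17.1 and numpy 2.4.6.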

Additional observations from a re-analysis of the deposited data

How the results depend on the processing

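The scaling decides the direction of small ratios. Under upper-quartile scaling every ratio rose 1.67-fold, so that the summed ratio of the family reversed to 1.30, that of the 3p arm was 1.51 and that of the 5p arm 1.01, the median log2 ratio of the members was 0.53, 7 members were called higher and 0 lower (18.4% and 0%, against 23.9% and 10.2% of all names), and miR-548d-5p reversed to 1.23. Total-count scaling gave 0.706 for the family and 0.550 for the 5p arm, with 0 members higher. Scaling by miR-425 gave 0.715 and 0.557, also with 0 higher. Total counts without miR-378, added after the data had been seen, gave 0.743 for the family and 0 members higher. Under these last 3 scalings and under TMM, the same 3 members were called lower.

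Without the member with the most reads the family had a ratio of 0.944, the 5p arm 0.928 and the 3p arm 1.19, and without the 3 members called lower, also added later, the family stood at 0.960. Calls by a 2-fold ratio alone gave 3 higher and 6 lower, a 1.5-fold limit 2 and 5 (all names 14.5% and 19.5%), and a whole interval past 2-fold 0 and 1 (miR-548b-5p; all names 6.53% and 11.1%). Read minimums of 5, 20 and 50 moved the median log2 ratio to between -0.22 and -0.17. Of the 33 named members, 33 had the same call under TMM and 32 under total counts. Under upper-quartile scaling 6 gained a call and 3 lost one. MiR-548d-5p, called under neither scaling, was the only member with intervals wholly on opposite sides of 1. The remaining 23 kept their call. Some of these crossed 1 too, such as mir-548h-3* (0.880 to 1.47) and miR-548b-3p (0.621 to 1.04), but with an interval that included 1 under at least 1 scaling. Names were not merged by sequence: no pair among the 12 matched members had the same sequence, and the other 26 were not matched. No paired analysis was possible because there is 1 library per line, and for the same reason no replicate could be left out. Spread between cultures is unknown, and under 10 reads per member no direction could be read.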
